A study of Homo sapiens with 4 samples.

Results

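The serine/threonine protein phosphatase subunits described here are the genes whose symbols begin with PPP1 to PPP6 or with PPM1, and their peaks were taken from 1 list of RNA sites that came down with HuR, an RNA-binding protein. The cells were MDA-MB-231, an established line from a triple-negative breast cancer. Of the 14149 peaks in the list, 159 (1.12%) lay in a transcript of such a gene, and they came from 20 of the 90 protein-coding genes that carry these symbols. A peak was given to the gene of the RefSeq transcript named in its annotation, not to the gene with the nearest transcription start. Lysates of unmodified cells grown in serum-containing medium were precipitated with a mouse antibody against HuR (2 samples) or with mouse IgG (2 samples), and the RNA that came down was sequenced (RIP-seq). The list is pooled over the series and carries no value for an individual sample or for IgG, so no level has a replicate error and no HuR against IgG test could be made. A gene with no peak is called unlisted, which does not say that HuR leaves its RNA unbound or that the cells lack the RNA. Fewer bound molecules and less RNA in the cell cannot be told apart from a peak score.

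Protein phosphatases remove phosphate from serine and threonine residues. In the PPP families (PP1, PP2A, PP2B or calcineurin, PP4, PP5 and PP6) a small number of catalytic subunits join many regulatory subunits, which choose the substrate, place the enzyme in the cell or inhibit it. The PPM enzymes depend on metal ions and mostly act without regulatory subunits. HuR, the product of ELAVL1, binds AU-rich and U-rich stretches, most often in 3′-UTRs and introns, and is known for stabilising the transcripts that it binds.

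The sites below lie inside the 3′-UTR peaks of 6 regulatory subunit genes and hold the AU-rich pentamer that is counted later in these peaks. Of the 10 regulatory genes with the pentamer in such a peak, these 6 have the highest best scores. They were read from the hg38 genome on the strand of the gene, 5′ to 3′, with the pentamer ATTTA in capitals and 10 bases on each side.
PPP3R1: aactggtgatATTTAatatgcatgt
PPP6R3: taagtaaagtATTTAttgctacatc
PPP1R15B: tagggagcacATTTAcaggatggtc
PPP1R12A: acatacctatATTTAtctgagtgct
PPP4R2: agacttcattATTTAtgagaaaata
PPP1R2: tacctctctgATTTAcagattgcta

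The PPP3R1 site is at chr2:68179891-68179915 on the - strand, the PPP6R3 site at chr11:68613750-68613774 on the + strand and the PPP1R15B site at chr1:204404168-204404192 on the - strand. The PPP1R12A site is at chr12:79774802-79774826 on the - strand, the PPP4R2 site at chr3:73066515-73066539 on the + strand and the PPP1R2 site at chr3:195515828-195515852 on the - strand. All 6 are in the 3′-UTR of the canonical GENCODE transcript.

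The catalytic subunit genes PPP1CB and PPP6C had 3′-UTR peaks without ATTTA, so a run of T from each is shown in capitals instead, a choice made after their values were seen.
PPP1CB: ttcctatttcTTTTTTTTaagggtt
PPP6C: gtgtttccTTTTTTTaaaagccaat

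The PPP1CB run is at chr2:28800585-28800609 on the + strand and the PPP6C run at chr9:125149343-125149367 on the - strand, both in canonical 3′-UTRs.

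Phosphatase genes were listed at a share of 22.2% (20 of 90; 95% Wilson interval 14.9 to 31.8%), beside 15.3% of all protein-coding genes (3069 of 20020). Counting peaks at or above the list's median score of 34.0, the shares were 16.7% (15 of 90; 10.4 to 25.7%) and 7.77%. The first interval contains the background share and the second lies above it. Both treat the genes as independent draws, so neither decides whether the phosphatases differ from the background. No test was made, since the genes were chosen with earlier results known. A further 56 non-coding genes and pseudogenes carry these symbols, and 0 of them had a peak. The share over all non-coding genes and pseudogenes was not taken, so this count is not read as a result.

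Catalytic and regulatory subunits were listed at similar shares, but the interval of the difference is wide. Of 23 catalytic genes 6 had a peak (26.1%, 12.5 to 46.5%), and of 67 regulatory, scaffold and inhibitor genes 14 had one (20.9%, 12.9 to 32.1%). The difference was 5.19 percentage points with a 95% Newcombe interval from -12.4 to 27.1 points. By the gene with the nearest start, which the file also gives, the order turned, with 17.4% of catalytic and 20.9% of regulatory genes listed.

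By family, the counts of listed genes were small. PP1 had 6 of 45 genes listed (13.3%), and 5 of its 42 regulatory genes (11.9%). PP2A had 4 of 16 (25%), all among its 14 regulatory genes, and 0 of its 2 catalytic genes. PP2B had 2 of 5, PP4 had 3 of 7, PP5 had 0 of 1 and PP6 had 2 of 4. The PPM1 genes had 3 of 12 (25%). With families this small the intervals overlap each other and, in all but PP4, contain the background share of 15.3%.

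**Figure D1:**
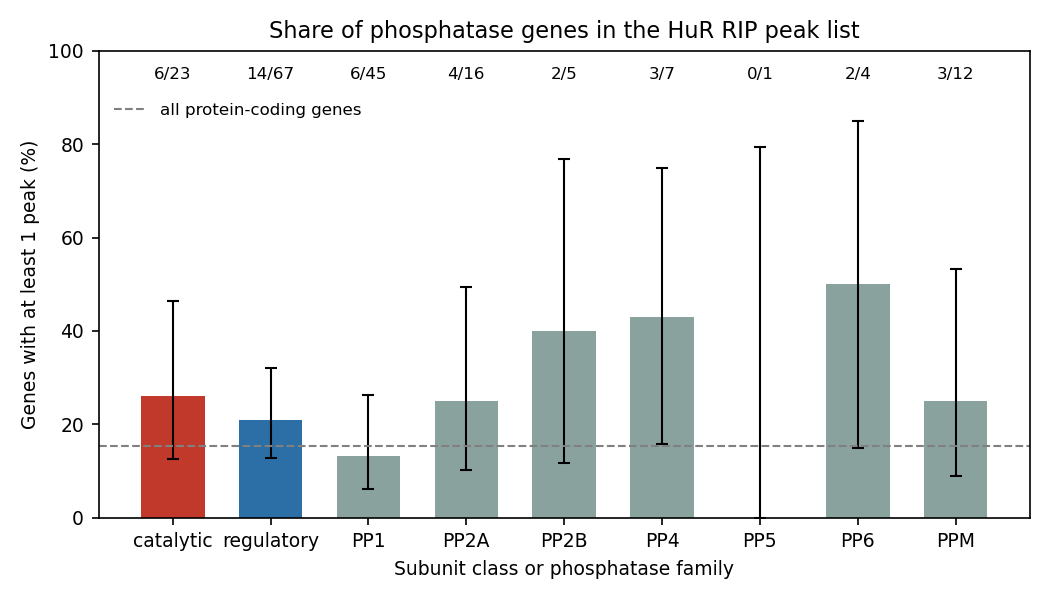
Share of genes with at least 1 peak (y axis, %) by subunit class and by phosphatase family, with 95% Wilson intervals as bars and the listed and total genes printed above. The dashed line marks the 15.3% of all protein-coding genes, and every interval but that of PP4 crosses it.

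The phosphatase genes that were listed had high peak scores. The score is the peak caller's value for a peak, which the file does not define, and it was compared directly because every peak spans 347 bp. The 159 phosphatase peaks had a median score of 142 (quartiles 49.8 to 249), beside 34.0 over all peaks, and 133 of them (83.6%) were at or above the list median. Per gene, the best score had a median of 81.1 for the phosphatases and 34.5 for all listed protein-coding genes, and 15 of the 20 genes had a best score at or above the list median, beside 50.3% of all host genes. These are descriptions, and no test was made. Peaks were unevenly spread. PPP6R3, PPP1R12A and PPP1CB together held 83 (52.2%), 4 genes had 1 peak each, and without PPP6R3 the median score of the other 120 peaks was 112.

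Of scores under 100, 98.3% were multiples of 0.2447 to within 0.05 (0.005 for scores under 10), where 39.3% would fall by that tolerance alone. If 1 such step is 1 sequenced tag, counting error can be given as an exact 95% Poisson interval. These intervals are printed after the scores below. They hold counting error alone, because molecules were not tagged before amplification.

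The highest phosphatase peak was in a catalytic subunit. PPP1CB, the beta catalytic subunit of PP1, had 13 peaks, a best score of 1249.3 (1215 to 1284) and rank 30 of 3312 host genes. At the start of the gene, overlapping peaks on opposite strands scored 103.8 and 657.8. Peaks between the ends scored 421.6 to 803.4, and those in the 3′-UTR 1140.6 and 1249.3. The 3′-UTR peaks, at chr2:28800423-28800769 and chr2:28800476-28800822, were called on opposite strands and overlap. Every peak of the gene was above the list median, and peaks touched 6 of the 8 canonical exons. The other PP1 catalytic genes, PPP1CA and PPP1CC, were unlisted.

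PPP6C, the catalytic subunit of PP6, had 9 peaks with a best score of 554.8 (532 to 578) at chr9:125149725-125150071 in an annotated exon, and 514.9 (493 to 537) in the 3′-UTR. The remaining scores were 429.7, 412.8, 297.1, 287.8, 270.9, 114.0 and 23.7, and 6 of 7 exons were touched. The lowest, 23.7, was the peak nearest the start of the gene, and it overlapped the peak at 287.8, called on the other strand. PPP3CA, a catalytic subunit of calcineurin, which calcium and calmodulin activate, had 5 peaks. Its 3′-UTR peaks scored 82.7 and 75.6, and its intronic peaks 32.1, 28.9 and 24.2, so the 3′-UTR values and the intronic values did not overlap.

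The PPM1 phosphatases covered a lower range. PPM1B, which dephosphorylates several stress kinases, had 11 peaks, the best 174.0 (161 to 187) at chr2:44201870-44202216 in exon 2 of 6, with 151.5 in the same exon and the rest between 36.0 and 71.0. Its last 4 peaks, at 52.9 to 61.4, lay beyond the end of the canonical transcript, in the 3′ end of a longer isoform. PPM1H had 1 peak at 15.7 (12.1 to 20) and PPM1D, a phosphatase that p53 induces and that acts on the DNA damage response, 1 at 10.0 (7.20 to 13.6). Both single peaks were in 3′-UTRs, and both scores were below the list median.

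**Figure D2:**
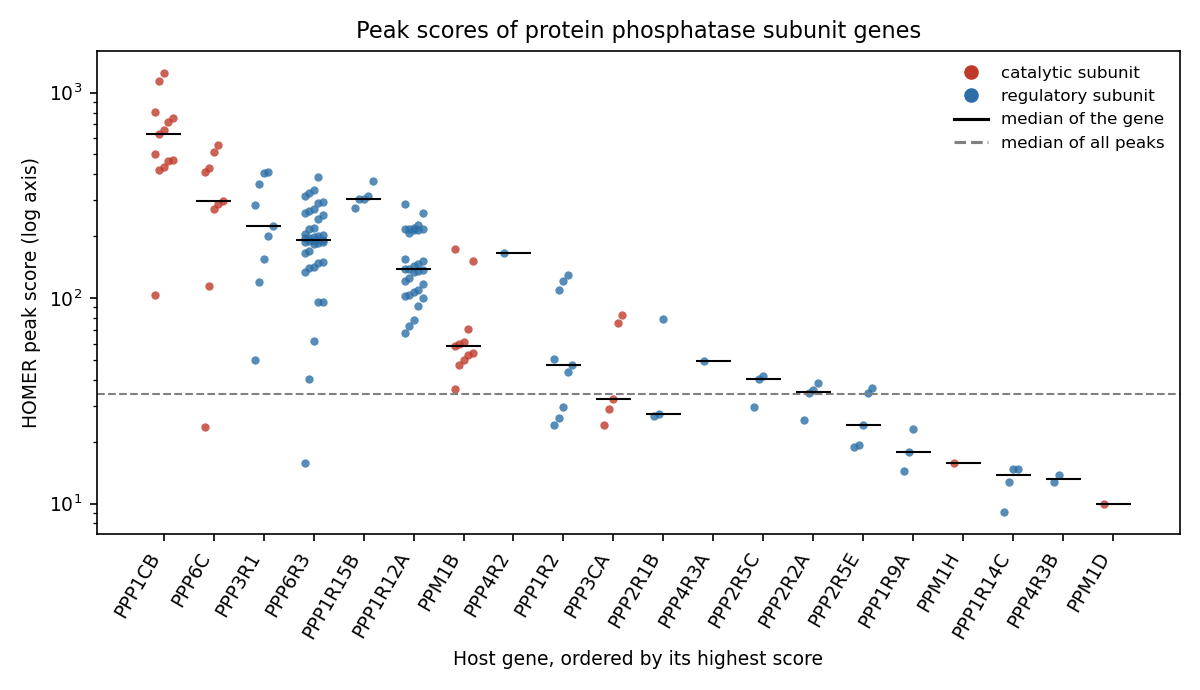
Scores of the 159 phosphatase peaks (log axis) for each of the 20 listed genes, ordered by best score and coloured by subunit class, with a bar at each gene's median and a dashed line at the median of all peaks. PPP1CB is highest at 1249.3, and PPM1D is lowest by best score at 10.0.

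The PP1 regulatory subunits covered a wide range of scores. PPP1R15B, which directs PP1 to the translation initiation factor eIF2 alpha, had 5 peaks at 372.9, 314.0, 303.7, 303.4 and 272.9, a narrow range in a gene with only 2 exons. None of the 5 was intronic. PPP1R12A, the myosin-targeting subunit that works with PPP1CB in smooth muscle and non-muscle cells, had 31 peaks from 67.3 to 286.6 (270 to 303 for the highest), which touched 17 of 25 exons. PPP1R2, an inhibitor of PP1, had 9 peaks from 24.0 to 129.9 (119 to 141), with its 3 highest at the 3′ end of the gene. PPP1R9A, a neuronal scaffold that binds actin, had 3 peaks up to 23.0 (18.6 to 28.1), and PPP1R14C, a PP1 inhibitor activated by phosphorylation, had 4 up to 14.7 (11.2 to 18.9).

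Both parts of the calcineurin heterodimer were listed. PPP3R1, its calcium-binding regulatory subunit, had 9 peaks, with 412.3 (393 to 432) at chr2:68179810-68180156, 408.2 and 358.8 at the 3′ end, 119.2 to 285.1 further upstream and 49.7 nearest the start. The peak at 49.7 overlapped that at 119.2, called on the other strand. The regulatory subunit was higher than the catalytic PPP3CA, whose best interval ended at 92.0. PPP3CB, PPP3CC and PPP3R2 were unlisted.

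In PP6, PPP6R3, a regulatory subunit that links the catalytic subunit to ankyrin-repeat proteins, had the most peaks of any phosphatase gene, 39 on 18 of 24 exons. Its scores ran from 15.7 to 387.1 (368 to 407) with a median of 192. The highest was at chr11:68613701-68614047. PPP6R1 and PPP6R2 were unlisted.

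In PP4 the catalytic PPP4C was unlisted, and 3 regulatory genes had few peaks. PPP4R2, a subunit of the core PP4 complex, had 1 at 166.4 (154 to 179; chr3:73066506-73066852), PPP4R3A 1 at 49.4 (42.8 to 56.7) and PPP4R3B 2, the higher at 13.7 (10.4 to 17.8). The counting intervals of these 3 best scores did not overlap.

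The PP2A genes were all regulatory and of moderate score. PPP2R1B, the beta scaffold, had 3 peaks up to 79.5 (71.1 to 88.7). PPP2R5C had 3 up to 41.6 (35.6 to 48.3), PPP2R2A 4 up to 38.7 (32.9 to 45.2) and PPP2R5E 5 up to 36.5 (30.8 to 42.8), and these 3 substrate-choosing subunits did not differ beyond counting error. In the order of all best scores, the interval of PPP6R3 overlapped those of PPP3R1 and PPP1R15B on either side. PPM1B overlapped PPP4R2, and PPP3CA overlapped PPP2R1B. At the low end, each gene from PPP4R3A to PPP2R5E and from PPP1R9A to PPM1D also overlapped its neighbour.

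The best score per gene was higher in catalytic than in regulatory genes by less than the spread between genes. On the log2 scale the medians were 6.91 (SD 2.76, n = 6 genes) and 5.97 (SD 1.76, n = 14), a difference of 0.94 beside a pooled SD of 2.09. The difference came to -0.02 with the median score per gene, 0.40 without PPP1CB and 3.15 without the PPM1 genes, which leaves 3 catalytic genes. With the file's gene name it was 1.84. Genes are not replicates, and no test was made.

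The position of the peaks within genes was close to that of the whole list. As annotated, 108 of the 159 were intronic (67.9%, 60.3 to 74.7%, beside 61.9% of all peaks), 28 in 3′-UTRs (17.6%, 12.5 to 24.3%, beside 14.6%) and 15 in other exons (9.43%, beside 12.6%). Catalytic genes had 11 of 40 peaks in 3′-UTRs (27.5%, 16.1 to 42.8%) and regulatory genes 17 of 119 (14.3%, 9.11 to 21.7%), with intervals that overlap. The order depended on how position was assigned: with canonical transcripts at the peak centre the shares were 20% and 16.8%, and after each peak was moved 173 bp back against its strand they turned to 17.5% and 21.0%. Intronic peaks took 52.5% (37.5 to 67.1%) of catalytic and 73.1% (64.5 to 80.3%) of regulatory peaks. Peaks of 1 gene share its structure, and PPP6R3 and PPP1R12A supplied most of the regulatory peaks.

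Nearly all intronic phosphatase peaks lay against exons. The median distance from an intronic peak to the nearest canonical exon was 98.0 bp, and 104 of 108 (96.3%) were within 1 peak length, beside 96.4% over the list. The 4 exceptions were pairs in PPP2R5C (3038 and 3410 bp) and PPP6R3 (14172 and 14396 bp), and all 4 lay within 58 bp of an exon of another transcript. Peaks on the 2 strands were offset from each other. Of 64 peaks on the - strand with a + strand neighbour within 1000 bp, 60 (93.8%) had it on the right, at a median distance of 340 bp, and over the list the share was 92.3%. Moving each peak 173 bp back against its strand placed 47.2% (39.6 to 54.9%) of phosphatase peaks in coding exons, 20.1% in 3′-UTRs and 25.8% in introns. Over all peaks with a host gene in GENCODE these shares were 53.1%, 18.7% and 20.2%. As many peaks were on the gene's strand (80 of 159) as on the other, so the strand of a peak does not give the strand of the RNA.

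**Figure D3:**
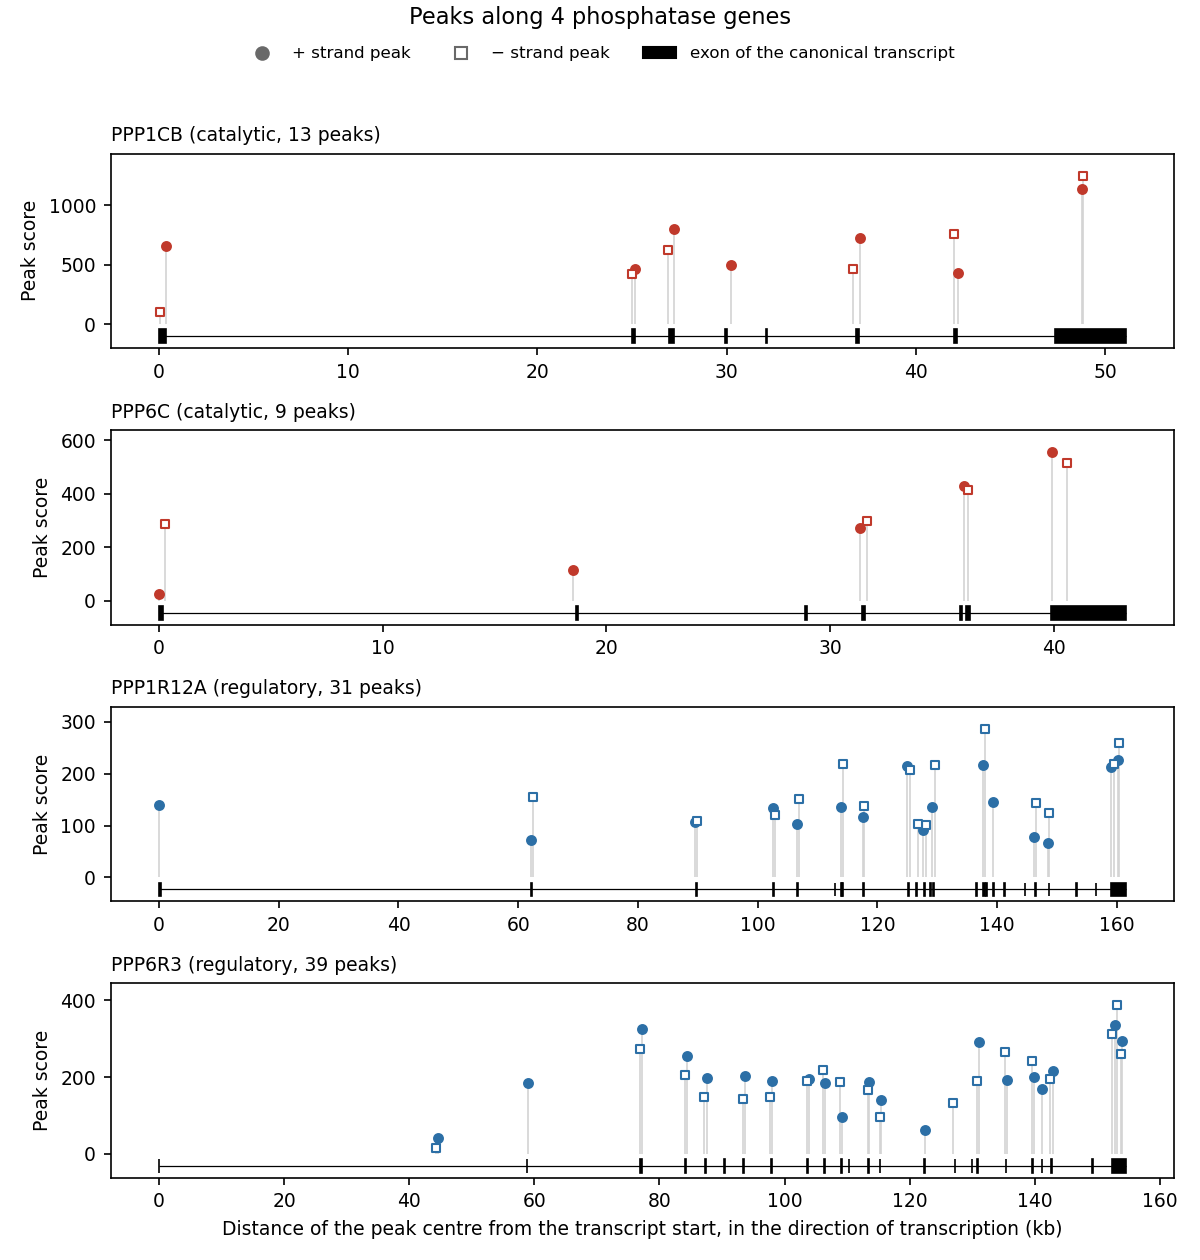
Peak score (y axis) against distance of the peak centre from the transcript start (x axis, kb, in the direction of transcription) for PPP1CB, PPP6C, PPP1R12A and PPP6R3, with filled circles for + strand and open squares for - strand peaks and black boxes for canonical exons. PPP1CB and PPP6C score highest in the last exon, and the peaks of PPP1R12A and PPP6R3 stand beside 17 of 25 and 18 of 24 exons.

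Exon by exon, the listed phosphatase genes were densely covered when pooled, but unevenly. Peaks touched 86 of their 234 canonical exons (36.8%), beside 20.8% of exons over all listed genes. PPP6R3 supplied 18 of the 86 and PPP1R12A 17. The share per gene had a median of 32.9% and quartiles of 12.8 and 69.8%, beside quartiles of 9.09 and 44.4% over all listed genes. PPM1D, PPM1H, PPP1R9A, PPP2R1B, PPP2R5C, PPP4R2, PPP4R3A and PPP4R3B were below 20.8%, at 5.88 to 16.7%. The median was 0.985 peaks per kb of exon, beside 0.580 over all listed genes. In the 10 genes with at least 5 peaks, 70 of 112 exons were touched. These genes were picked by their number of peaks, which raises that share, and no share over equally selected genes of the list was taken.

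Within a gene, 3′-UTR peaks scored above coding-exon peaks. After the 173 bp move, 11 phosphatase genes had peaks in both places, and in 10 the median score was higher in the 3′-UTR. The median difference was 0.79 on the log2 scale (range -0.05 to 2.05), and over the list it was 0.85, with 854 of 996 genes higher in the 3′-UTR. PPP1R2 had the widest gap (122 against 29.4), followed by PPP2R1B and PPP3CA (79.2 against 28.9). PPP1CB had 1195 against 627 and PPP3R1 408 against 211. PPP1R15B was the exception, at 293 against 304. The phosphatase median thus lay near that of the whole list.

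**Figure D4:**
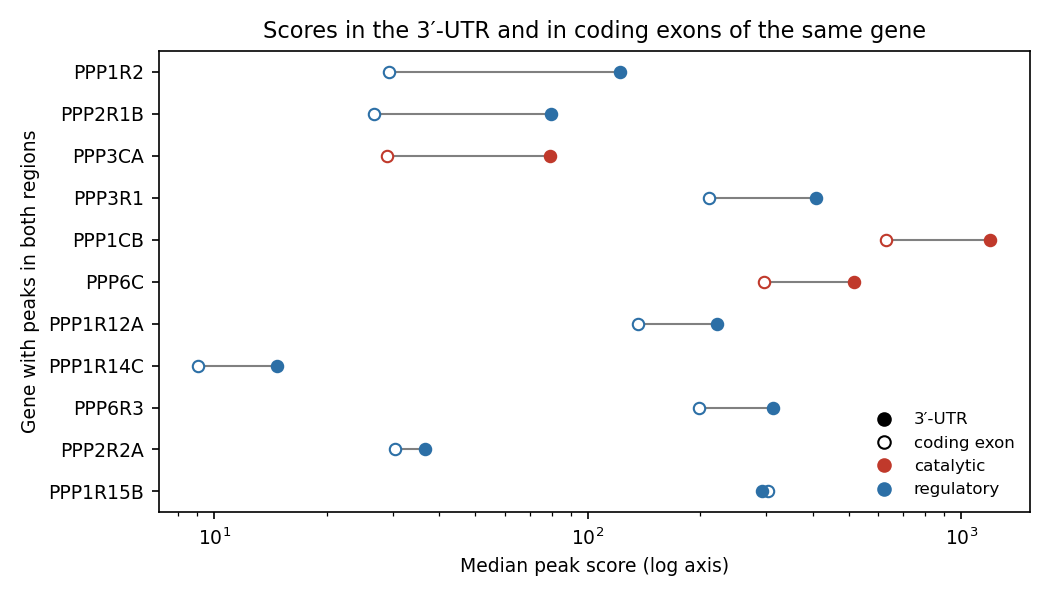
Median score (x axis, log scale) of 3′-UTR peaks (filled) and coding-exon peaks (open) for the 11 phosphatase genes with both, with positions moved 173 bp back and colours for subunit class. The filled point lies to the right in 10 of 11 genes, and in PPP1R15B the points nearly coincide at 293 and 304.

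The AU-rich pentamer was common in phosphatase 3′-UTR peaks. ATTTA was searched on the gene's strand in the 27 phosphatase peaks that lie wholly in a canonical 3′-UTR, from 15 genes, and 20 held it (74.1%, 55.3 to 86.8%), beside 54.0% of the 2051 such peaks of equal length in the list. The longer TATTTAT, which contains ATTTA, was in 7 (25.9%, beside 8.24%), and TTTTT was in 17 (63.0%, beside 78.7%). Regulatory peaks held ATTTA in 17 of 20 cases (85.0%, 64.0 to 94.8%) and catalytic peaks, from 5 genes, in 3 of 7 (42.9%, 15.8 to 75%), and these intervals overlap. TTTTT was in 11 of 20 regulatory peaks (55.0%, 34.2 to 74.2%) and 6 of 7 catalytic ones (85.7%, 48.7 to 97.4%), and these intervals overlap too. By gene, all 10 regulatory genes and 3 of 5 catalytic genes had an ATTTA in such a peak, and those without were PPP1CB and PPP6C, whose runs of T are printed above. No share by gene was taken over the list. A gene with more such peaks, as PPP6R3 with 4, has more chances to hold the pentamer. Overlapping peaks share bases, so the 20 peaks hold 19 separate pentamers. A match describes the letters in the window and is not a binding site.

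Listed phosphatase genes had longer 3′-UTRs than unlisted ones, as listed genes did in general. Their canonical 3′-UTR had a median of 2662 bp with 6 ATTTA (3.02 per kb) and 35.1% GC, beside 913 bp, 2 ATTTA (1.82 per kb) and 47.0% GC in the 70 unlisted genes. Listed and unlisted catalytic genes had medians of 2914 and 785 bp, 2.68 and 2.41 ATTTA per kb and 33.6 and 37.9% GC. In regulatory genes these were 2544 and 946 bp, 3.16 and 1.81 per kb and 35.4 and 47.4% GC. The length gap was thus seen in both classes, and the pentamer and GC gaps were wider in regulatory genes. Over all protein-coding genes the medians were 2500 bp and 2.68 per kb when listed, and 857 bp and 1.19 per kb when unlisted. None of the 20 listed phosphatase genes lacked ATTTA, and 19 of the 70 unlisted ones did (27.1%). Over all protein-coding genes with a 3′-UTR, 6.59% of listed and 37.3% of unlisted genes lacked it.

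Paralogues differed in the same way in some families and not in others, and no tally over families was made. PPP1CB has 3637 bp with 11 pentamers, beside 352 bp with 0 in PPP1CA and 1396 bp with 3 in PPP1CC. PPP6R3 has 2217 bp with 6, beside 749 bp with 0 in PPP6R1 and 843 bp with 2 in PPP6R2, and PPP1R15B has 2711 bp with 11, beside 85 bp with 2 in PPP1R15A. Other families went the other way. PPP3R1 (2106 bp, 10 pentamers) was listed and PPP3R2 (2805 bp, 14) was not. PPP2R2A was listed with 2267 bp and 9, and PPP2R2B (9205 bp, 23), PPP2R2C (2721 bp, 5) and PPP2R2D (3871 bp, 7) were unlisted. PPM1A (6605 bp, 31 pentamers), PPM1L (9745 bp, 29), PPP1R12B (12142 bp, 17) and PPP2CA, a PP2A catalytic gene (3440 bp, 9), were unlisted, and the scaffold genes PPP2R1A (3537 bp, unlisted) and PPP2R1B (3719 bp, listed) both have 4. PPM1B was listed with 754 bp and 4. How much of each RNA the cells hold was not measured here, and its part in these differences was not tested.

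**Figure D5:**
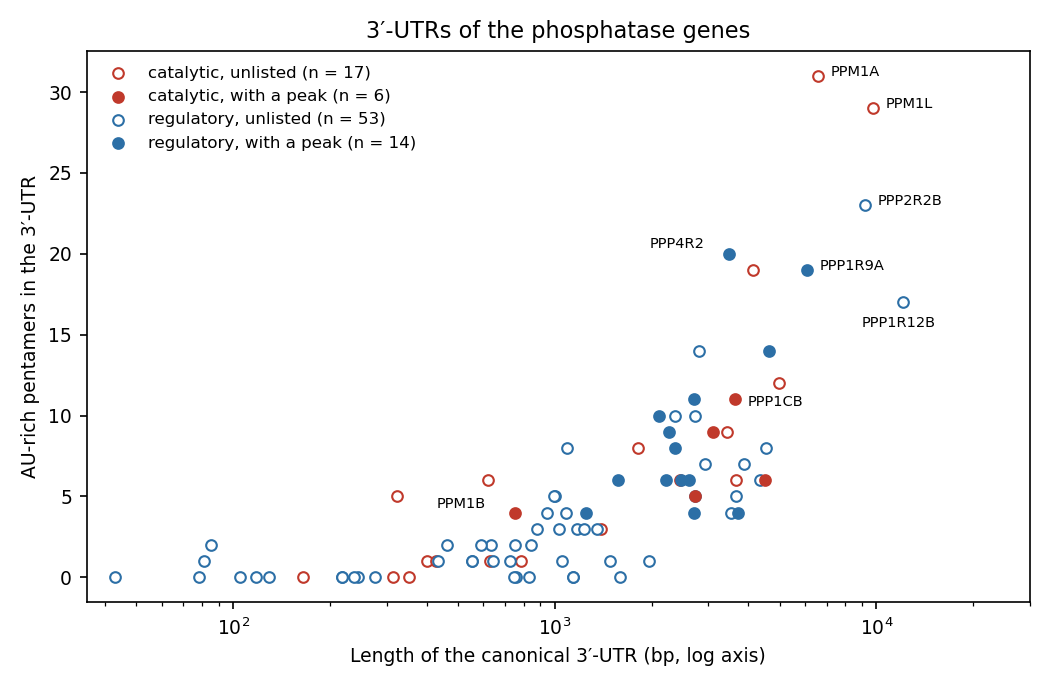
Length of the canonical 3′-UTR (x axis, bp, log scale) against its number of AU-rich pentamers for the 90 phosphatase genes, filled where the gene has a peak and coloured by subunit class. Listed genes lie mainly to the right, at a median of 2662 bp beside 913 bp for unlisted genes, and PPM1A, PPM1L and PPP1R12B are unlisted toward the right edge.

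Genes that work with the phosphatases were also in the list. Of 66 partner and regulator genes outside the PPP and PPM1 symbols, 29 had a peak (43.9%, beside 15.3%). Their median best score was 39.2, beside 34.5 for all protein-coding genes with a peak. The lists of partners and regulators were chosen with earlier results of these data known. All 3 ankyrin-repeat partners of PP6 had a peak, at 34.5 (ANKRD28), 17.6 (ANKRD52) and 15.2 (ANKRD44). ANKRD52 and ANKRD44 were below the list median of 34.0. The STRIPAK complex, in which striatins join PP2A to kinases, had 8 of 15, led by STRN3 with 26 peaks and a best score of 277.0. PP1 partners had 8 of 15, among them PHACTR2 at 126.5 and SHOC2 at 91.0. PP2A regulators had 3 of 12, with the inhibitor SET at 2136.6, ARPP19, which inhibits PP2A in mitosis, at 408.2 and CIP2A at 93.2. Calcineurin regulators and targets had 3 of 13, with CHP1, a calcineurin B-like protein, at 258.2, and other PPM phosphatases 4 of 8, up to 36.2 in PDP1.

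The gene name in the file differed from the host gene for 74 of the 159 phosphatase peaks (46.5%, 39.0 to 54.3%, beside 41.3% of all peaks). PPP3CA, PPP4R2, PPP2R2A, PPP1R9A, PPM1H and PPM1D had no peak under their own name. The name PPP4R2 was instead given to 5 peaks of GXYLT2. PPP1R8, PPP1R13L and PPP3CC appear by name only through peaks of STX12, POLR1G and SLC39A14. A search by that name finds 101 phosphatase peaks, 85 of them shared with the 159.

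In 4 genes, 13 peaks overlapped an exon of another gene (PPP3R1 6, PPM1B 5, PPP1R12A 1 and PPP6R3 1). Since the library kit does not mark strand, reads from the overlapping genes cannot be told apart. Among the 13 were the highest peaks of PPM1B (174.0 and 151.5) and of PPP3R1 (412.3 and 408.2, which hold its printed site). PPP1R2 and PPP4R2 have processed pseudogenes, and how reads shared with such copies were placed is not given in the sources used here. The cell line could be checked only weakly, since the list holds no expression levels: CD44, which these cells express strongly, had 13 peaks up to 769.6, and VIM and KRT18 were unlisted.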

How the data were processed

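RNA recovered with HuR antibody or IgG (2 samples each, called biological replicates in the methods) was sequenced by the authors from TruSeq libraries without poly(A) selection. They aligned reads to hg38 with STAR and called peaks with HOMER. Versions, and the threshold on altered transcript abundance by which peaks were kept, are not given in the sources used here. The deposited list holds 1 row per peak with a score whose scale is not stated, a focus ratio (a fraction between 0 and 1) and a distance to the nearest start (other, in bp). It has no column for any sample, so depth per sample is unknown. The phosphatase peaks had a median focus ratio of 0.527, beside 0.542 over the list.

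Host genes were found by matching the transcript in each annotation to RefSeq (13835 of 13929 peaks with a transcript). Positions, exons and 3′-UTRs are those of canonical GENCODE 44 transcripts, and sequences were read from hg38. The planned comparison of HuR with IgG could not be made without values per sample. Shares have Wilson and their difference Newcombe intervals at 95%. Scripts used Python 3.11.15, pandas 2.3.3, scipy 1.17.1, statsmodels 0.14.6 and pysam 0.24.0, and were tested on simulated data. Members and gene lists were chosen with earlier results of these data known. All 20 listed genes are named, with unlisted paralogues and with partners from those gene lists. Alternatives were another gene assignment, a minimum score at the median, other peak positions, merged loci, other motifs and leaving out gene groups.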

Additional observations from a re-analysis of the deposited data

How the results depend on the processing

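Of 28 alternatives over 6 results, 2 turned the direction. With the file's gene name, the difference between the shares of catalytic and regulatory genes listed turned from 5.19 to -3.50 points, and the phosphatase peaks numbered 101 in place of 159. The difference in shares was 0.973 points with peaks at or above the median score and 9.67 with exon and UTR peaks. The log2 difference in best score turned from 0.94 to -0.02 with the median score per gene and moved to 3.15 without the PPM1 genes. Its other values ran from 0.40 without PPP1CB to 1.84 with the file's gene name. The AU-rich motif share went from 74.1% to 25.9% with the heptamer, which is longer by construction. The share of phosphatase genes listed ran from 16.7 to 22.2% and the 3′-UTR share of peaks from 15.1 to 20.8% over their alternatives. Leaving out PPP1CB or PPP6R3 was added after seeing the data. No paired analysis was possible because no column of the file holds a single sample, and for the same reason the planned fits of HuR against IgG (edgeR or DESeq2, with a replicate block or a replicate left out) were not run. The depth behind each library is unknown.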
